A study of Mus musculus with 2 samples.

Results

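The genes described here are 8 matrix metalloproteinase genes, Mmp13, Mmp12, Mmp3, Mmp10, Mmp8, Mmp27, Mmp20 and Mmp7, listed in their order along mouse chromosome 9. They were taken by name, and each matched 1 of the 49585 rows of both gene tables. The list was selected on their RPKM values in these same 2 libraries (RPKM is the number of reads per kilobase of gene model, scaled to the size of the library), which were known when it was drawn up, so those levels and the differences between the libraries are given as a description, with no test. RNA sequencing measured Nestin+ mesenchymal stromal cells grown from heart and bone marrow of C57BL/6 mice 7 days old. The mice carry a Nestin-GFP transgene, in which the green fluorescent protein marks cells that use the regulatory sequence of the intermediate filament gene Nes. RNA was harvested from both at passage 10. With 1 library for each tissue, none of the differences has a replicate check. The number of animals behind each culture is not stated in the labels. The heart cells grew in a DMEM/F12 and IMDM medium that held 20 ng/ml of EGF, 20 ng/ml of bFGF, 4 ng/ml of cardiotrophin-1, beta-mercaptoethanol, and the N2 and B27 supplements. The bone marrow cells grew in a medium that the labels give by citation only, so tissue and medium cannot be told apart.

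Matrix metalloproteinases are zinc-dependent enzymes that are secreted or membrane-bound, are made as inactive proenzymes, and cleave extracellular matrix and many secreted proteins. The secreted members encoded together on this chromosome fall into collagenases, which cut the triple helix of fibrillar collagens, stromelysins, which cut proteoglycans, fibronectin and laminin and help to activate other proenzymes, and a few enzymes of narrower use. In bone, collagenase-3 (Mmp13) is known from hypertrophic chondrocytes and osteoblasts, and stromelysin-1 (Mmp3) is a gene that fibroblasts switch on in response to inflammatory cytokines and growth factors.

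All 8 genes lie on the plus strand within 427072 bases of chromosome 9, from 7272514 to 7699585 in the coordinates of the deposited tables, which match GRCm38 gene models. Mmp13 spans 7272514 to 7283331, Mmp12 7344381 to 7369499, Mmp3 7445822 to 7455975 and Mmp10 7502352 to 7510240. Mmp8 spans 7558456 to 7568485, Mmp27 7571396 to 7581885, Mmp20 7628231 to 7674979 and Mmp7 7692090 to 7699585. The interstitial collagenase genes Mmp1b and Mmp1a lie between them, on either side of Mmp3. Among the 28 pairs of the group, coding sequences were 59.4% to 80.45% identical over aligned bases, with a median of 64.15%. The highest identity was between the stromelysin genes Mmp3 and Mmp10.

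The sequences around their starts are shown because members with very different levels carry the same short motifs close to the start. Each is the RefSeq window of GRCm38.p6 on the plus strand, 250 bases before to 50 bases after an annotated start. Capitals mark matches, on either strand, to TGANTCA (the AP-1 motif), AGGAAG (an ETS motif), TATAAA (the TATA box) and TGTGGT (a Runx motif). No matches overlapped one another. Mmp3 at chr9:7445572-7445871 and Mmp13 at chr9:7272264-7272563 are the leading members of heart and bone marrow. Mmp10 at chr9:7502092-7502391 is the closest relative of Mmp3. Mmp12 at chr9:7347124-7347423 is the second of its 2 starts, and Mmp7 at chr9:7691840-7692139 is the first of 2 starts of a gene with 0 reads in both libraries.
Mmp3: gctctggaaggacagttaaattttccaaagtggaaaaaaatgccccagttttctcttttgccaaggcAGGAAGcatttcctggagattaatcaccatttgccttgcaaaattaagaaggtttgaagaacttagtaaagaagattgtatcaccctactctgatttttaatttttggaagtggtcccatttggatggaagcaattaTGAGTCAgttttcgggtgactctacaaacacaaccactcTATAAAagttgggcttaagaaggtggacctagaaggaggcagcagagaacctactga
Mmp13: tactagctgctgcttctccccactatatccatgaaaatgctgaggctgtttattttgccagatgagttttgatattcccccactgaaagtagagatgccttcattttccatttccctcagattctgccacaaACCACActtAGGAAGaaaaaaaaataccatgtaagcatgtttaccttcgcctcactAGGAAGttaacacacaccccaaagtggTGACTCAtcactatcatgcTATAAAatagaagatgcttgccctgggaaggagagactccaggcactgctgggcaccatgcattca
Mmp10: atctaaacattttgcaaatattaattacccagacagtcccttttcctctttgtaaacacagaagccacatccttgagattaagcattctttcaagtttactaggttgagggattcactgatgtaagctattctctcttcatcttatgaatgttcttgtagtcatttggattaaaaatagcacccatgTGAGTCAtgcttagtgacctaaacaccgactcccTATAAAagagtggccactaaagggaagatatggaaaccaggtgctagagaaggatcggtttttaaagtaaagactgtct
Mmp12: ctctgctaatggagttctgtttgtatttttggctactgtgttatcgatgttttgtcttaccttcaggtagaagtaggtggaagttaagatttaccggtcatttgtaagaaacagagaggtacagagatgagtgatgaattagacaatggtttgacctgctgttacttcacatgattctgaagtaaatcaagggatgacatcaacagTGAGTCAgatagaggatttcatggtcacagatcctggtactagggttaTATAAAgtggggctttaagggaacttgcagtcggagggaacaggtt
Mmp7: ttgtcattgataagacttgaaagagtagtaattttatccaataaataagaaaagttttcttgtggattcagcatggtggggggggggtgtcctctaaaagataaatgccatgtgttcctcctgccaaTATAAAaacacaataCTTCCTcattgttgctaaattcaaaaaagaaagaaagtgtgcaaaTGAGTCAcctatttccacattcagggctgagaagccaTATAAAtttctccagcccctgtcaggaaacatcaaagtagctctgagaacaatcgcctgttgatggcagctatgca

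The AP-1 motif, which is bound by dimers of Fos and Jun proteins, was present in a window of 6 of the 8 genes. Over all 27025 genes with a window, 8.97% held it. Its first base lay at -46 in Mmp3, -35 in Mmp13, -63 in Mmp10, -44 in Mmp12, -63 in Mmp7 and -95 in Mmp20, counted from the annotated start. The matched letters were TGAGTCA in Mmp3, Mmp10, Mmp12 and Mmp7, TGACTCA in Mmp13 and TGAATCA in Mmp20. Presence of the motif did not separate the genes by level, since it stood in the windows of the 2 highest members and of both members with 0 reads. The windows of Mmp8 and Mmp27 held no match to these letters.

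A TATA box match was found in a window of 7 of the 8 genes, against 15.7% of all genes, and Mmp27 was the exception. A match wholly before the start was found in 5 of them, where 12.4% of all windows held such a match. The Mmp12 match began at base 5 after the start. That of Mmp8 was on the minus strand, began at -3 and crossed the start. Matches to the ETS motif stood in 5 of the 8 (Mmp3, Mmp13, Mmp12, Mmp7 and Mmp8), against 38.4% of all genes. In Mmp13, 2 such matches lay at -109 and -62. The Runx motif stood in 3 of the 8, against 18.9% of all genes. It lay at -118 in Mmp13, at -62 in Mmp27 and in the second window of Mmp7, while the Mmp3 window held none. A match is a run of letters and was not tested as a binding site.

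The reads recovered from the deposited values numbered 53999963 for bone marrow and 64872683 for heart, and every value of the 8 genes was a whole number of reads within 0.02 reads. The stromal label was checked against 12 markers, all at or above 1 RPKM in at least 1 library. The collagen genes Col1a1 and Col1a2 and the receptor gene Pdgfrb were abundant in both. Of the 12, 4 were called 2-fold higher in heart by the rule given further on, and 1 in bone marrow. Among all symbols reaching the level it asks for, that rule called 7.56% toward heart and 9.51% toward bone marrow. Nes itself stood at 1.20 RPKM in bone marrow versus 8.74 in heart. The surface marker genes Thy1 (0.0603 RPKM) and Eng (0.576 RPKM) were below 1 RPKM in bone marrow, and stood at 16.7 and 33.9 RPKM in heart. Ly6a, which encodes Sca-1, stood at 229 RPKM in bone marrow versus 2.23 in heart. All 6 cardiomyocyte markers were below 1 RPKM in both libraries, and 5 endothelial markers summed to 1.36 RPKM in bone marrow versus 0.272 in heart.

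Each library had 1 dominant member of the cluster, and it was not the same gene. The summed level of the 8 genes was 7.40 RPKM in bone marrow, of which Mmp13 made up 97.7%. In heart it was 378 RPKM, of which Mmp3 made up 97.5% and Mmp13 0.0916%. In bulk RNA a smaller fraction of expressing cells and less RNA per cell cannot be told apart, and this holds for all levels below.

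**Figure D1:**
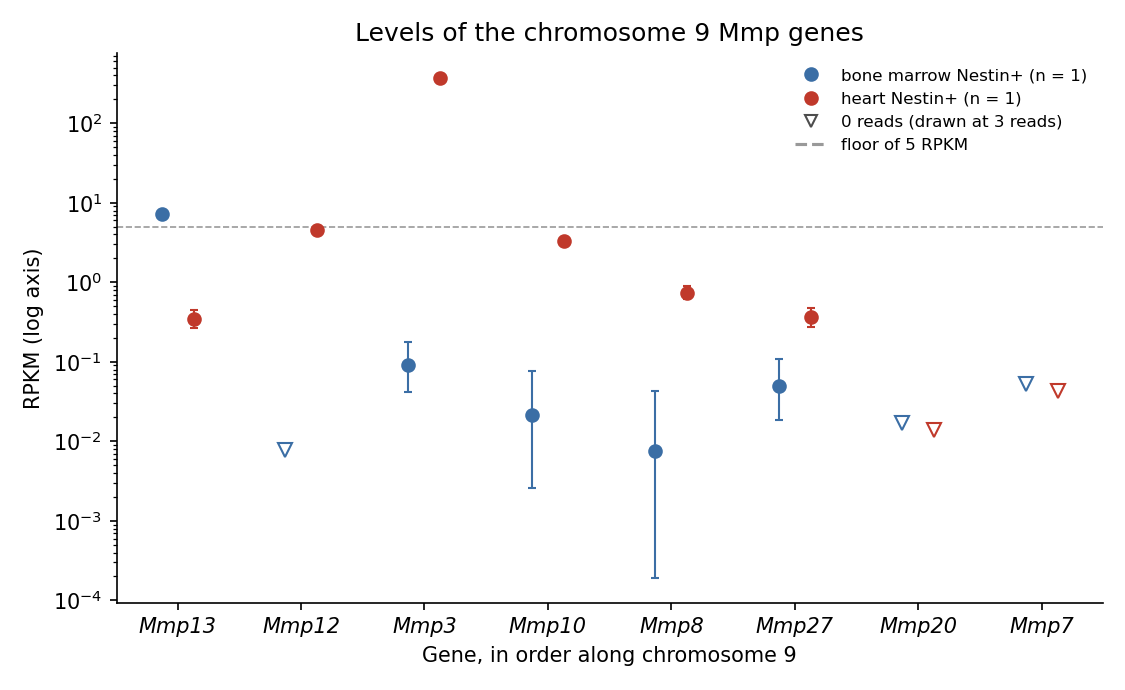
RPKM of the 8 genes on a log axis, in their order along the chromosome, for the single bone marrow and heart libraries, with 95% Poisson counting intervals as bars. Mmp3 in heart stands at 369 RPKM, Mmp13 in bone marrow at 7.23 RPKM is the only other value above the floor of 5 RPKM, and Mmp20 and Mmp7 have 0 reads in both libraries (open triangles, drawn at 3 reads).

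Mmp3 encodes stromelysin-1. The gene model, of 10 exon blocks, had 9 reads in bone marrow versus 43063 in heart, or 0.0925 and 369 RPKM. Heart over bone marrow, the read ratio was 3983, and it had an exact 95% counting interval of 2098 to 8711. Intervals and floors here cover counting error in these 2 libraries only, since reads that carry no molecular identifier can be copies of 1 molecule, and cultures were not replicated. On the scale of log2((heart + 1)/(bone marrow + 1)) in RPKM, which understates differences of low genes, Mmp3 had 8.40. By RPKM it was the 82nd gene of the heart library and the 13720th of the bone marrow library. Its log2 ratio was the highest of all 49492 symbols toward heart, which was known when the list was drawn up and is no finding. Where 2 RPKM values of a gene are given as a pair below, the bone marrow value comes first.

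Mmp10 encodes stromelysin-2, a close relative of Mmp3 with similar substrates. It had 2 reads in bone marrow versus 370 in heart, or 0.0215 and 3.31 RPKM. The read ratio was 154, with a wide interval of 42.3 to 1276 because of the low bone marrow count. As counted, both stromelysin genes were higher in heart, but Mmp10 stood far below Mmp3 there. The value of Mmp10 is uncertain: 8.37% of the 50-base windows of its transcripts also occur in Mmp3, and how reads matching both genes were counted is not given in the sources used here. For Mmp3, 7.99% of windows also occur in Mmp10. Mmp3 had 43063 reads in heart, so reads of the shared part could make up much or all of the 370 given to Mmp10. The ratio and direction of Mmp10 therefore depend on how such reads were counted, which was not tested.

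Mmp13 encodes collagenase-3. It had 1044 reads in bone marrow versus 60 in heart, or 7.23 and 0.346 RPKM. The level was 20.9-fold higher in bone marrow, with a counting interval of 16.1 to 27.6, and the log2 ratio of heart over bone marrow was -2.61. It was the only one of the 6 members with reads that was higher in bone marrow. None of its 50-base windows occurs in another gene. Among the 7659 symbols reaching 5 RPKM in at least 1 library, it ranked 138th by log2 ratio toward bone marrow. That rank depends on the 1 RPKM added, which shrinks the ratio of a gene this low. With 0.1 RPKM added the log2 ratio was -4.04.

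Mmp8 encodes collagenase-2, best known from neutrophil granules. It had 1 read in bone marrow versus 117 in heart, or 0.00764 and 0.744 RPKM. The read ratio was 97.4, with an interval of 17.1 to 3879. The collagenase genes Mmp13 and Mmp8 therefore differed between the libraries in opposite directions. Of 9 neutrophil markers, all were below 1 RPKM in both libraries. Their summed level was 0.0176 RPKM in bone marrow versus 0.390 in heart, and S100a9, Ly6g, Ltf and Ngp were at 0 in both. The sum was higher in the heart library, as Mmp8 was, and its part in the Mmp8 value was not tested.

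Mmp12 encodes macrophage metalloelastase, which cuts elastin. It had 0 reads in bone marrow versus 2126 in heart, and stood at 4.53 RPKM in heart. Set against a floor of 3 reads in the bone marrow library it was 590-fold higher in heart, and the lower counting limit was 479. The 9 macrophage markers summed to 4.39 RPKM in bone marrow versus 4.75 in heart, mostly Cd14 and Lyz2. Ptprc and Adgre1 were at 0 in heart and at 0.00469 and 0.00571 RPKM in bone marrow. Csf1r was lower in heart as well, at 0.144 RPKM in bone marrow versus 0.104 in heart. The remaining markers were higher in heart, among them Cd68 at 25 and 44 reads, Itgam at 1 and 6 and Fcgr1 at 0 and 3. The counting intervals of these read ratios included 1. They were 0.877 to 2.50 for Cd68 and 0.606 to 230 for Itgam, with a lower limit of 0.344 for Fcgr1. The part of macrophages in the Mmp12 value was not tested.

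The level of Mmp12 depends on the length it is divided by. The union of all its annotated exons is 7237 bases, while its longest protein-coding transcript has 3607. With that transcript length, which was chosen after seeing the data, its heart level was 9.09 RPKM and passed the floor. The last 1261 bases of its span overlap Mmp1b on the opposite strand. Since use of strand is not stated, reads of the shared part cannot be assigned to one gene.

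Mmp27, a little-studied member of the family, had 6 reads in bone marrow versus 52 in heart, or 0.0503 and 0.363 RPKM. The read ratio of 7.21 had an interval of 3.10 to 20.6, the smallest ratio among the 5 members that were higher in heart. Mmp20 encodes enamelysin, the protease of developing tooth enamel, and Mmp7 encodes matrilysin, an epithelial enzyme without the hemopexin domain of the others. Both had 0 reads in both libraries, and the floor of 3 reads corresponds in heart to 0.0141 RPKM for Mmp20 and 0.0433 for Mmp7. The exact upper limits in heart, of the kind drawn for the other members, were 0.0173 and 0.0532 RPKM. The enamel organ genes Amelx, Ambn and Odam were also at 0 in both. Epithelial markers summed to 3.07 RPKM in bone marrow versus 0.142 in heart. The bone marrow sum was mostly Krt14 (1.22 RPKM), Krt19 (0.908) and Cdh1 (0.623). Epcam, at 0 in bone marrow, and Krt8 were slightly higher in heart.

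Within the heart library the order of levels was Mmp3, Mmp12, Mmp10, Mmp8, Mmp27, Mmp13, and then the 2 genes at 0. The counting intervals of neighbours in that order did not overlap, except for Mmp27 (0.271 to 0.476 RPKM) and Mmp13 (0.264 to 0.445 RPKM), which could not be ordered. Within bone marrow only Mmp13 stood clear. The interval of Mmp3 there (0.0423 to 0.176 RPKM) overlapped those of Mmp27 (0.0185 to 0.109 RPKM) and Mmp10 (0.00260 to 0.0777 RPKM). The single read of Mmp8 gave an interval up to 0.0425 RPKM, which met that of Mmp3 only at the edge. No order among these 4 was read from overlapping intervals, and pairs were not compared directly.

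**Figure D2:**
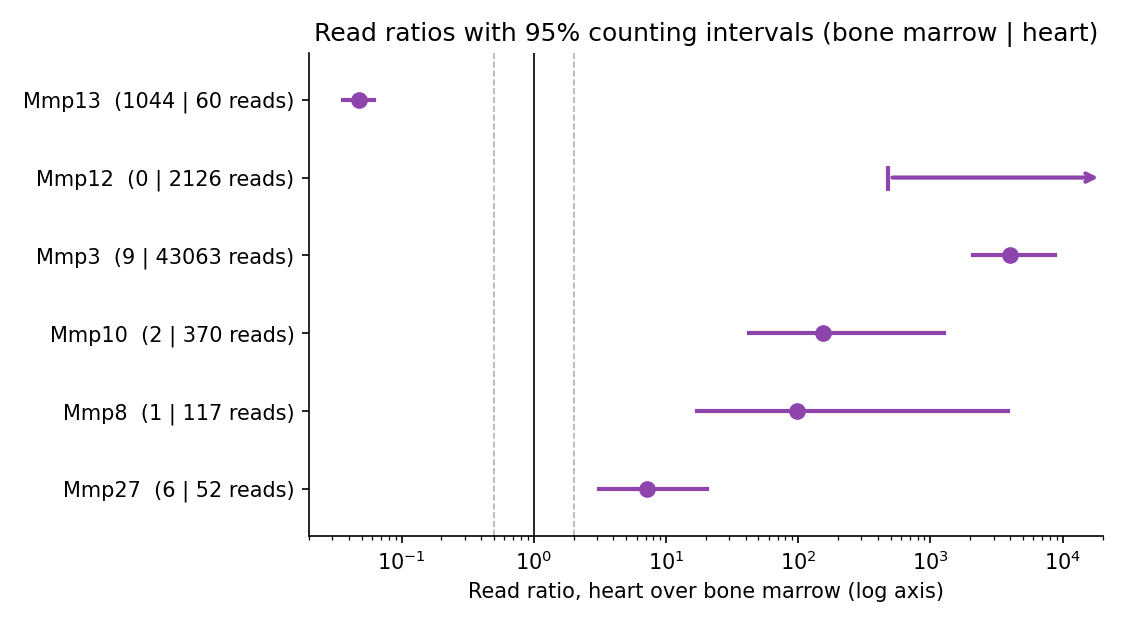
Read ratio of heart over bone marrow for the 6 genes with reads, on a log axis, with exact 95% counting intervals as lines and the read numbers beside each name. The intervals of Mmp12 (lower limit 479, no upper limit), Mmp3, Mmp10, Mmp8 and Mmp27 lie above the dashed line of 2-fold, and that of Mmp13 lies below 0.5.

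A gene was called 2-fold apart where its log2 ratio was at least 1 in size and its higher library reached 5 RPKM. By this rule 1 of the 8 genes, Mmp3, was higher in heart, and 1, Mmp13, was higher in bone marrow. Of the 7659 symbols that reached the floor, 7.56% were called toward heart and 9.51% toward bone marrow, and 2 of the 8 genes reached it. Of all these calls 44.3% were toward heart, and 54.7% when the libraries were scaled to a median ratio of 1, a shift of 0.15 in log2. The other 6 members were below the floor, with Mmp12 just under it. A rule on reads, added after seeing the data, asked instead that the whole counting interval lie beyond 2-fold. It took 5 of the 8 genes toward heart and 1 toward bone marrow, against 8.03% and 8.12% of 16247 symbols with reads. Because the members were listed with their values known, nothing about the cluster is read from these shares. The median log2 ratio of the 8 genes was 0.58, and that of all symbols was 0.00.

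The genes around the cluster are given beside it for their levels. Within 500 kb of its ends, 17 further rows were measured, 7 of them at or above 1 RPKM in at least 1 library, and 0 were called 2-fold apart. Only 4 of the 17 reached the floor of 5 RPKM, and with 7.56% and 9.51% of all symbols called, a count of 0 among 4 says little about the flanks. Dcun1d5, before Mmp13, stood at 20.8 RPKM in bone marrow versus 20.2 in heart. Tmem123, the first gene at or above 1 RPKM beyond Mmp7, stood at 34.5 and 40.4 RPKM. Yap1, which encodes a coactivator of the Hippo pathway, stood at 14.3 and 13.5 RPKM.

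The flanking gene at or above 1 RPKM with the highest log2 ratio, 1.03, was Birc3, which encodes an inhibitor of apoptosis and is a known target of NF-kB. It stood at 1.48 RPKM in bone marrow versus 4.05 in heart, from 400 and 1316 reads, a ratio of 2.74 with an interval of 2.45 to 3.07. It stayed below the floor of 5 RPKM, but its interval lay beyond 2-fold, so the rule on reads took it toward heart. Its relative Birc2 stood at 7.14 and 9.46 RPKM, and the dynein gene Dync2h1 at 1.31 and 2.00 RPKM. Inside the cluster, Mmp1b had 0 reads in bone marrow versus 23 in heart, 6.38-fold higher when set against the floor of 3 reads, with a lower counting limit of 4.78. Its value is uncertain, since 7.93% of its 50-base windows occur in Mmp12 and 11.8% in Mmp1a. Mmp1a had 0 reads in bone marrow versus 2 in heart, too few for a fold.

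**Figure D3:**
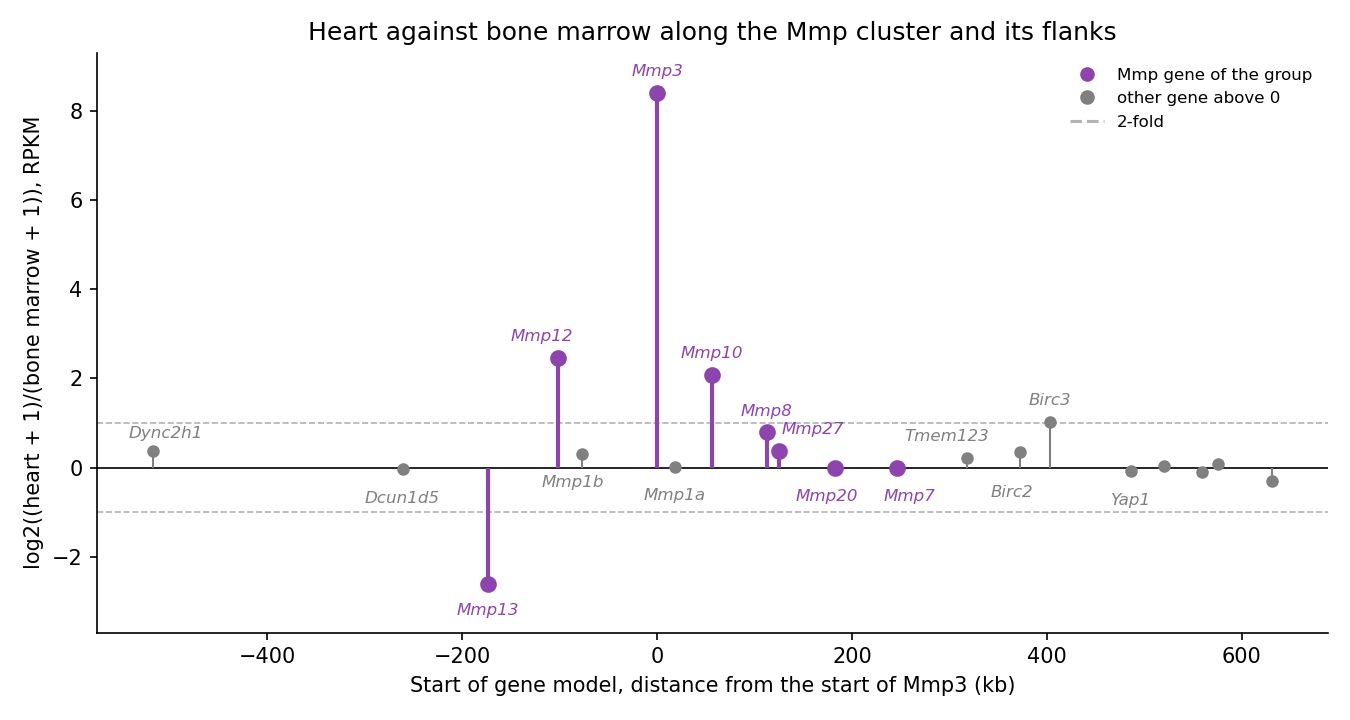
Log2 ratio of heart over bone marrow in RPKM with 1 added, for the 8 Mmp genes (purple) and the other genes above 0 within 500 kb of the cluster (grey), by distance of the start of the gene model from that of Mmp3. Mmp3 stands at 8.40 and Mmp13 at -2.61, and Birc3 is the highest of the flanking genes at 1.03, above Mmp8 at 0.79 and Mmp27 at 0.38.

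The other metalloproteinases measured had smaller log2 ratios than Mmp3, as all other symbols did. A few of these metalloproteinase genes were abundant in both libraries. Of 15 other family members, Mmp1a and Mmp1b inside the cluster included, 3 were called toward heart, 1 toward bone marrow, 1 was neither and 10 were below the floor. Over all symbols at the floor, 7.56% were called toward heart and 9.51% toward bone marrow. The median log2 ratio was 0.15 over all 15 and 1.56 over the 5 at the floor, against 0.00 over all symbols and -0.15 over those at the floor. Mmp2, the gelatinase A gene, stood at 246 RPKM in bone marrow versus 792 in heart, and the stromelysin-3 gene Mmp11 at 21.8 and 119 RPKM. Mmp19 stood at 14.0 and 43.1 RPKM, and Mmp23, the gene called toward bone marrow, at 5.71 and 1.99 RPKM. Mmp14, which encodes a membrane-bound enzyme that activates the Mmp2 proenzyme, stood at 236 and 417 RPKM and was neither. In heart, Mmp3 thus ranked below Mmp2 and Mmp14 in level among all of these genes, while in bone marrow Mmp13 ranked below Mmp2, Mmp14, Mmp11 and Mmp19.

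The inhibitor genes Timp1, Timp2 and Timp3 were abundant in both libraries, while Timp4 and A2m stayed below 1 RPKM. Of 6 inhibitor genes, 0 were called toward heart, 1 toward bone marrow and 3 neither way. The shares over all symbols at the floor were 7.56% toward heart and 9.51% toward bone marrow. Timp3, whose product is held in the matrix, stood at 585 RPKM in bone marrow versus 175 in heart, a log2 ratio of -1.74. Timp1 stood at 327 and 295 RPKM and Timp2 at 299 and 385 RPKM. Reck, which encodes a membrane-anchored inhibitor, stood at 6.52 and 7.10 RPKM. The log2 ratio of Mmp3 was the highest of all symbols toward heart, so no inhibitor gene could match it. Nothing about the inhibitors is read from that.

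**Figure D4:**
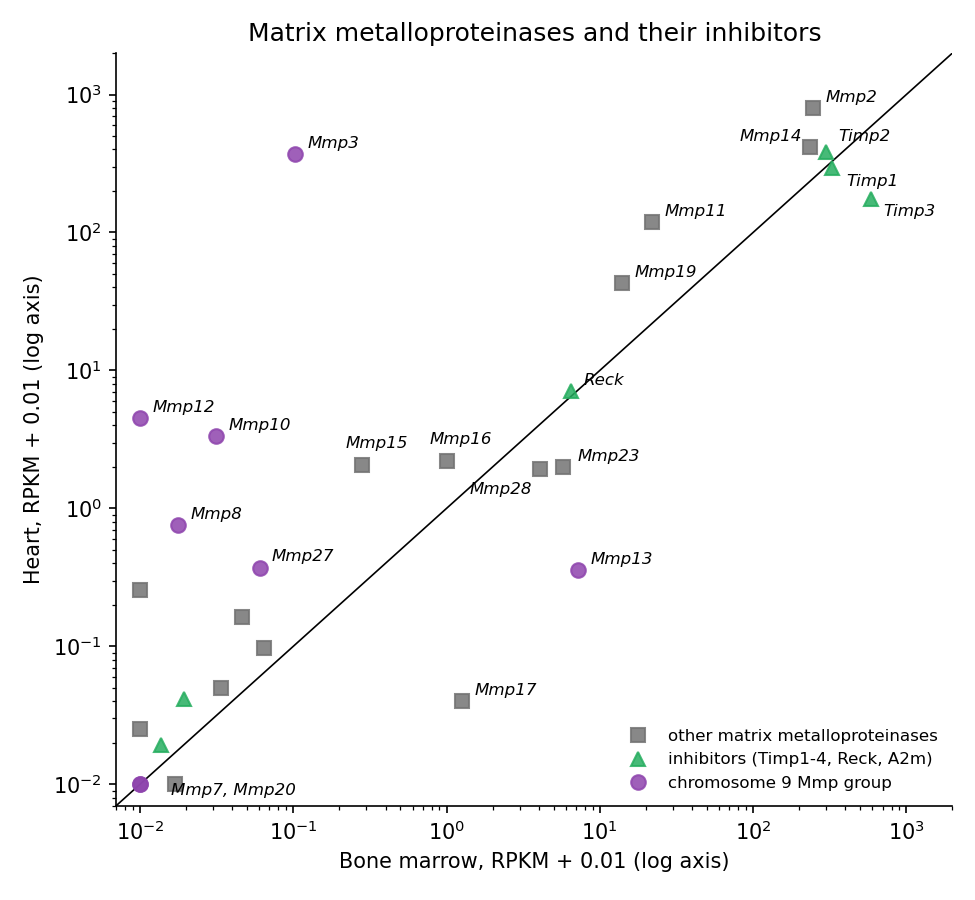
Heart against bone marrow RPKM, each with 0.01 added so that genes at 0 can be drawn, on log axes, for the chromosome 9 group, the 15 other matrix metalloproteinases and 6 inhibitor genes; the line marks equal levels. Mmp3 lies farthest from the line at 0.0925 and 369 RPKM, and Mmp13 lies below it, while Timp1, Timp2 and Reck lie close to it.

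The proenzymes are activated outside the cell, in part through plasmin. Of 15 genes listed for activation, 3 were called toward heart and 2 neither way. Toward heart, 7.56% of all symbols at the floor were called. The plasminogen activator genes Plat and Plau were higher in heart, at 31.4 and 25.7 RPKM against 5.70 and 12.2 in bone marrow. Serpine2, the other gene called toward heart, encodes an inhibitor of these activators, so it does not do what the list's name says. It stood at 121 RPKM in bone marrow versus 353 in heart. Plg, which encodes plasminogen itself, was at 0 in bone marrow versus 0.00560 RPKM in heart.

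Transcription factors known at stromelysin and collagenase promoters did not follow 1 direction. Of 23 genes, 22 reached the floor, and 4 were called toward heart, 7 toward bone marrow and 11 neither way. Of all symbols at the floor, 7.56% were called toward heart and 9.51% toward bone marrow. The median log2 ratio of the list was -0.36 over all 23 and -0.41 at the floor. Under other scalings of the libraries, 4 or 5 were higher in heart and 4 or 5 in bone marrow, so the balance of that list depends on the scaling. The AP-1 subunit genes Fosl1, Fos and Jund were called toward bone marrow, with Fosl1 at 16.2 RPKM there and 2.48 in heart and Fos at 61.5 and 27.4. Fos and Jund were close to the 2-fold threshold, with log2 ratios of -1.14 and -1.02. Jund lost its call under each of the 4 other scalings and Fos under 2 of them. Atf3, a stress-induced factor that pairs with AP-1 subunits, stood at 8.32 and 1.37 RPKM. No AP-1 subunit gene of the list was called toward heart, and the part of these factors in the Mmp3 and Mmp13 values was not tested.

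Sp7 and Runx2, which encode factors known in bone, were called toward bone marrow, as Mmp13 was. Sp7, the osterix gene, stood at 41.6 RPKM in bone marrow versus 0.0106 in heart. Runx2, a factor known to act on the Mmp13 promoter, stood at 9.46 and 4.16 RPKM. Its log2 ratio of -1.02 was at the edge of the threshold, and its call was lost under each of the other scalings. The inflammatory factor gene Cebpd stood at 8.38 RPKM in bone marrow versus 31.3 in heart, and Cebpb at 26.3 and 69.3. Of 11 hypertrophic chondrocyte and osteoblast markers, 5 were called toward bone marrow (4 under each of the other scalings), 1 toward heart, and 1 was neither. Over all symbols at the floor, 9.51% were called toward bone marrow and 7.56% toward heart. Alpl stood at 26.8 RPKM in bone marrow versus 0.00764 in heart, and Ibsp at 12.9 RPKM and 0. Col10a1, the collagen gene of hypertrophic cartilage, went the other way, at 1.82 RPKM in bone marrow versus 108 in heart. Below the floor, Dmp1 was also higher in heart, at 0.0536 and 4.50 RPKM, from 8 and 806 reads with an interval of 42.4 to 195. Bglap, below the floor too, was higher in bone marrow, at 4.46 and 0.0998 RPKM. The marker sum was 113 RPKM in bone marrow versus 124 in heart, and the part of these cells in the Mmp13 value was not tested.

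Ligand and receptor genes listed for signals that can induce stromelysin and collagenase genes were mostly higher in heart where they were called. Of 26 ligand and receptor genes, 8 were called toward heart, 2 toward bone marrow and 10 neither way. The shares over all symbols at the floor were 7.56% toward heart and 9.51% toward bone marrow. The median log2 ratio was 0.49 over all 26 genes and 0.69 at the floor, against 0.00 and -0.15 over all symbols. Il1b, Tnf and Osm, which encode the ligands best known for this, were at 0 in both libraries. Among receptors, Il1r1 stood at 0.832 RPKM in bone marrow versus 8.83 in heart, and Osmr, for oncostatin M, at 8.17 and 25.0. Egfr, the receptor for the EGF that was in the heart medium, stood at 2.75 and 20.7 RPKM. The cytokine genes Il33 and Il6 stood at 0.180 and 1.45 RPKM in bone marrow and at 16.7 and 16.8 in heart. Fgfr2, a receptor gene for fibroblast growth factors, and the cytokine gene Lif were the 2 called toward bone marrow. They stood at 28.4 and 9.89 RPKM there, and at 0.177 and 1.66 in heart. Il1rl1, the receptor gene for Il33, was below the floor and lower in heart, at 0.776 RPKM in bone marrow versus 0.0671. The part of the medium in these differences cannot be told apart from that of the tissue.

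Genes for substrates and matrix-bound partners of the enzymes leaned toward heart. Of 33 genes, 15 were called toward heart, 1 toward bone marrow and 9 neither way, against 7.56% and 9.51% of all symbols at the floor. The median log2 ratio was 0.92 over all 33 and 2.23 over the 25 at the floor, against 0.00 and -0.15 over all symbols. The chemokine gene Ccl8 had 6.86, Spp1, which encodes osteopontin, 6.03, Col10a1 5.27 and the lumican gene Lum 4.56. Col1a1, which encodes a chain of the main collagenase substrate, stood at 1777 RPKM in bone marrow versus 1751 in heart and was neither. Other collagen genes of the list did differ. Col2a1, the 1 gene called toward bone marrow, stood at 8.71 RPKM there versus 0.0565 in heart, and Col3a1 at 129 versus 1388. The difference in Mmp13 thus stood beside collagen genes that were nearly equal or differed in either direction. Of 8 genes for uptake of released protease and its products, 7 reached the floor. Of these, 1 was called toward heart, 0 toward bone marrow and 6 were neither, against 7.56% and 9.51% of all symbols at the floor. The exception was Mrc2, which encodes a collagen uptake receptor, at 40.7 RPKM in bone marrow versus 143 in heart. Ddr2, a collagen receptor gene known to raise Mmp13, stood at 59.3 and 31.1 RPKM. Cd44, which encodes a hyaluronan receptor, stood at 20.7 and 11.5 RPKM, and the collagen receptor gene Ddr1 at 11.5 and 8.52 RPKM.

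The genes most like Mmp3 in pattern were sought among genes at or above 20 RPKM, by the nearest log2 ratio over the 2 libraries. They were Serpina3n at 7.81, Saa3 at 7.13, Ccl8 at 6.86, Ccl11 at 6.62 and Calcrl at 6.22, all below the 8.40 of Mmp3. As Mmp3 had the highest log2 ratio of all symbols, they could only be the next highest among the genes searched. Serpina3n and Saa3 encode acute phase proteins, Ccl8 and Ccl11 encode chemokines and Calcrl a peptide hormone receptor. With 2 libraries, likeness means only a similar ratio. No other member of the cluster reached 20 RPKM, so no such genes were sought for them.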

How the data were processed

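The deposited values are RPKM (reads per kilobase of gene model, scaled to library size), 1 table for each library, as computed by the authors per the file headers. The submitters' processing notes name mm8, but 45149 of the 49585 rows (91.05%) sit at a gene position of GENCODE M21 (GRCm38). The sources used here name no aligner or counting tool and do not state the use of strand. Total RNA came from cells at passage 10, per the labels' protocols.

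Reads were recovered from RPKM, exon-union lengths and the library total that makes values whole. Of 14255 rows with a length and above 0 in both libraries, 12292 (86.23%) were whole in both within 0.02 reads, where chance gives 0.16%. These are derived values, so no count model was fitted. Ratios have exact conditional (Clopper-Pearson) 95% intervals. A library at 0 was set against 3 reads. Rows sharing a symbol were represented by the one with the highest mean, leaving 49492 symbols.

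The main value was log2 of heart over bone marrow with 1 RPKM added to each. Calls needed 2-fold and 5 RPKM in the higher library. With 1 library a tissue there is no test and no p-value. Members and gene lists were chosen with earlier results of these data known. Named genes are all members, named coding genes at or above 1 RPKM within 500 kb, and from every list up to 4 genes reaching 5 RPKM, taken by size of log2 ratio. One result on the list of activators is not reported here. The 5 genes nearest to a member in log2 ratio are named too, among genes at or above 20 RPKM. Mmp14, Fos, Jund, Runx2, Cebpb, Il1r1, Osmr, Lif, Il1rl1, Col1a1, Col1a2, Col2a1, Col3a1, Pdgfrb, Plg, Timp4, A2m, Il1b, Tnf, Osm and the other cell type markers were named after their values were seen. Promoter windows are from RefSeq (GRCm38.p6) and were found for all 8 genes. Proteins were not used here, and coding identity from GENCODE transcripts, aligned with Biopython 1.88, took the place of protein identity. Alternatives were pseudocounts, floors, a 4-fold threshold, 4 scalings, summed rows, transcript length and a rule on reads. The last 2 were chosen after seeing the data. The scripts ran in Python 3.11.15 with scipy 1.17.1, pandas 2.3.3 and numpy 2.4.6, drew with matplotlib 3.10.9, and were tested on simulated data.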

Additional observations from a re-analysis of the deposited data

How the results depend on the processing

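With 1 library a tissue, neither scaling nor counting error stands in for replicate spread, and depth limits the bone marrow values of Mmp3, Mmp10, Mmp8 and Mmp27, which rest on 9, 2, 1 and 6 reads. No paired analysis was possible because each tissue has 1 library.

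No alternative reversed a member. Mmp3 was called toward heart in every alternative. Mmp13 was called toward bone marrow in every alternative except the floor of 20 RPKM, which left 0 members there, as its construction requires. The count of members higher in heart was 3 with a floor of 1 RPKM or none (Mmp12 and Mmp10 joining), 2 with scaling by the median ratio or by an RPKM sum that leaves out mitochondrial and top genes, 2 with the length of the longest protein-coding transcript, and 5 with the rule on reads. The log2 ratio of Mmp3 was 10.90 and 6.20 with pseudocounts of 0.1 and 5, 8.55 with median scaling, 8.54 with upper quartile scaling and 8.55 with the RPKM sum. That of Mmp13 was -4.04 and -1.19 with these pseudocounts.

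Over all genes, 579 were higher in heart and 728 in bone marrow. A pseudocount of 5 gave 383 and 424, a floor of 20 gave 263 and 315, a 4-fold threshold gave 257 and 229, and the rule on reads gave 1305 and 1319. A floor of 1 or none gave 883 and 1052. Median scaling shifted abundant genes by 0.15 on the log2 scale and moved the share of calls toward heart from 44.3% to 54.7%. The protein comparison planned between members was not run. Leaving out a replicate was not possible.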
